A study of Arabidopsis thaliana with 8 samples.

Results

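The genes described here are IRX15, IRX15-L and GUT2 (also called IRX10), which act in the making of xylan for secondary walls in the stem of Arabidopsis thaliana. They were chosen by gene symbol in the probe annotation of the ATH1 array, which gave 1 probe set to each gene, 3 of 22746 probe sets once control probe sets were left out. All 3 passed the filter on dim probe sets and were tested among 15923. The study hybridised RNA from the stem of the cov mutant and of the wild type Ler-0 (stock NW20) to 8 arrays, 2 in each of 4 groups, which were cov stem base, wild type stem base, cov stem tip and wild type stem tip. All plants were at growth stage 6.10 and were kept in compost at 22 °C and 65% humidity under 24 hours of light, with an insecticide, Intercept, in every group. The background and allele of the cov line are not in the labels, and the wild type comes from 1 stock. COV1, the gene mutated in cov, has no named probe set in the annotation used here, so the genotype labels were not checked against it. The comparisons ask whether cov stems differ from wild type stems in these transcripts, at the base and at the tip, and how they change from tip to base.

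Xylan is the main hemicellulose of secondary walls in flowering plants, a chain of xylose units that coats and links cellulose microfibrils in xylem vessels and fibres. It is built in the Golgi apparatus. GUT2 is a glycosyltransferase of family GT47 that lengthens the xylan backbone, and GUT1 (IRX10-L) is its close relative. IRX15 and IRX15-L are a pair of related Golgi proteins with a DUF579 domain, and plants that lack both make less xylan with altered chain length. The name irregular xylem (IRX) comes from mutants whose weakened vessels collapse. In the inflorescence stem, tissue at the tip is young and still elongating, while fibres and vessels with thick walls lie toward the base.

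The array signal is a MAS5 intensity on a linear scale, and its mean after trimming 2% at each end was 100.01 on every array. Wild type base array 1 stood apart from the others by its low median signal, 41.4 against 46.4 to 50.1, and gave the highest signal of all 8 arrays for each of the 3 genes. The labels give no batch or scan. The xylem vessel and fibre list (9 genes), the epidermis list (6), the phloem list (7) and the green tissue list (8) had 0 named probe sets, so the labelled tissue was not checked against those markers. Changes are given on the log2(signal + 11.85) scale, on which small signals change less than their plain ratio. Of 7 anther and flower markers 2 had a probe set, AT5G07230 and AMS, a regulator of the anther tapetum. Their summed signal was 7.1 to 11.7 in cov bases and 823.2 to 969.2 in cov tips, and 4.8 to 22.9 in wild type bases and 829.5 to 1121.2 in wild type tips. Nearly all of the tip sum came from AT5G07230, at 769.7 to 1077.2 over the tip arrays, beside 39.0 to 59.8 for AMS. The tip samples of both genotypes therefore carried RNA of anther genes. Of 9 meristem and dividing cell markers only CLV3 had a probe set, at 2.2 to 12.2 over all arrays.

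At the stem base, IRX15 and IRX15-L fell in cov and GUT2 did not pass the test. IRX15 had signals of 260.2 and 384.6 in cov bases, against 829.5 and 646.8 in wild type bases. Both cov arrays lay well below both wild type arrays, and the means were 322 ± 88.0 in cov and 738 ± 129 in wild type (SD, n = 2 each). In a limma fit over all tested probe sets, with Benjamini-Hochberg adjustment, IRX15 was 2.27-fold lower in cov (95% limits 1.64 to 3.14, log2 difference -1.18 ± 0.21 SE, adjusted p = 0.00884). It stood 122nd from the lowest of the 15923 differences, with 0.76% of probe sets below it.

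IRX15-L had signals of 458.6 and 584.7 in cov bases, against 986.4 and 754.2 in wild type bases. The groups did not overlap, and the mean signal in cov was 59.9% of that in wild type. The fit put the fall of IRX15-L at 1.65-fold (limits 1.26 to 2.16, log2 difference -0.72 ± 0.18, adjusted p = 0.0391).

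GUT2 had signals of 516.4 and 789.9 in cov bases, against 1086.5 and 914.5 in wild type bases. Here too the groups did not overlap, but the cov arrays were farther apart from each other than for the other genes. The log2 difference was -0.63 ± 0.20, or 1.55-fold lower in cov (1.14 to 2.11, adjusted p = 0.106), so GUT2 was not called. The 95% limits of the 3 genes overlapped, and whether GUT2 differed from IRX15 in its response was not tested.

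Thus 2 of the 3 genes were called lower at the base, where 2.11% of all tested probe sets were called lower, 3.42% higher and 5.53% in either direction. In each of the 3 genes both cov arrays lay below both wild type arrays, which held for 21.1% of tested probe sets. In bulk stem tissue, fewer cells that make secondary walls and less of these transcripts per cell cannot be told apart. The plot of signals by array shows that the genes shared their order of base arrays, with cov array 1 lowest, then cov array 2, wild type array 2 and wild type array 1.

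**Figure D1:**
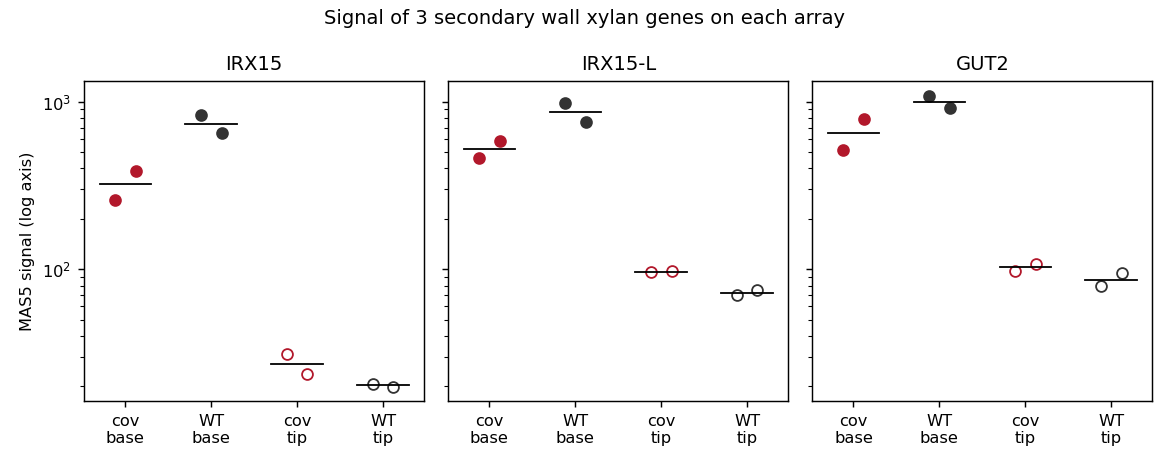
MAS5 signal (log axis) of IRX15, IRX15-L and GUT2 on each array, in the order cov base, wild type base, cov tip, wild type tip. Points are arrays (replicate 1 left of replicate 2) and bars are group means. In every gene the 2 cov bases lie below the 2 wild type bases and the 2 cov tips above the 2 wild type tips.

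Within each group of base arrays, the replicates differed in the same direction in the 3 genes. Array 1 minus array 2 of the cov bases was -0.54 for IRX15, -0.34 for IRX15-L and -0.60 for GUT2 on the log2 scale, against a median size of 0.20 over all tested probe sets. In wild type bases the difference was 0.35 for IRX15, 0.38 for IRX15-L and 0.25 for GUT2, against a median size of 0.23. The 3 genes are therefore not 3 separate observations of the genotype difference at the base, since they moved together between replicates there. The reason was not tested. At the tip the direction was not shared, with 0.28, -0.02 and -0.12 in cov for IRX15, IRX15-L and GUT2. In wild type tips it was 0.04, -0.08 and -0.22 in that order. Without wild type base array 1 the log2 difference at the base was -1.004 for IRX15 (adjusted p = 0.0885), -0.53 for IRX15-L (0.218) and -0.51 for GUT2 (0.376). Without cov base array 1 it was -0.91 for IRX15 (adjusted p = 0.0561), -0.55 for IRX15-L (0.203) and -0.33 for GUT2 (0.473). Without cov base array 2 the difference of GUT2 reached -0.93 and passed the test (adjusted p = 0.0299). The call of IRX15-L was also lost without any 1 of the tip arrays (adjusted p = 0.0511 to 0.0725), though its own difference at the base stays the same there.

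At the stem tip, the 3 genes had lower signals than at the base, and 0 of 3 passed the test between genotypes. There 1.41% of probe sets were called higher in cov, 0.408% lower and 1.82% in either direction. IRX15 had 31.1 and 23.6 in cov tips, against 20.8 and 19.9 in wild type tips. These signals lay between the 29.8th and the 38.5th percentile of their arrays, and the value at which probe sets were left out as dim was a mean of 21.36 over all arrays. IRX15-L had 95.9 and 97.5 in cov tips, against 70.2 and 75 in wild type tips. GUT2 had 97.9 and 107.3 in cov tips, against 79.2 and 94.4 in wild type tips. Unlike IRX15, these 2 genes were not dim at the tip. IRX15-L lay between the 59.7th and the 69.0th percentile, and GUT2 between the 62.9th and the 71.5th.

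The direction at the tip was opposite to that at the base. Both cov tips lay above both wild type tips in each of the 3 genes, which held for 22.8% of tested probe sets. The log2 difference was 0.28 ± 0.21 for IRX15 (adjusted p = 0.743), 0.36 ± 0.18 for IRX15-L (0.515) and 0.22 ± 0.20 for GUT2 (0.797). The 95% limits ran from -0.19 to 0.75, from -0.03 to 0.75 and from -0.23 to 0.66, so that a rise of more than 1.68-fold at the tip lies outside the limits of each gene. Both conditions together, cov below wild type at the base and above it at the tip without overlap, held for 4.40% of tested probe sets.

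From tip to base the 3 genes rose steeply in both genotypes. IRX15 had a mean signal of 322 in cov bases and 27.4 in cov tips, an 11.8-fold ratio, and 738 in wild type bases and 20.4 in wild type tips, a 36.3-fold ratio. With the pseudocount, which draws the difference of a gene with low tip signal toward 0, the fold was 8.42 in cov (6.08 to 11.7, adjusted p = 3.17e-06) and 23.1 in wild type (16.7 to 32.0, adjusted p = 9.98e-08). IRX15 stood 23rd from the highest of all base minus tip differences in cov and 27th in wild type.

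IRX15-L was 4.88-fold higher at the base than at the tip in cov (3.73 to 6.39, adjusted p = 6.45e-06) and 10.4-fold in wild type (7.91 to 13.6, adjusted p = 1.81e-07). GUT2 was 5.69-fold higher at the base in cov (4.18 to 7.75, adjusted p = 8.61e-06) and 10.3-fold in wild type (7.53 to 14, adjusted p = 4.63e-07). All 3 genes were thus called higher at the base in each genotype, where 15.4% of probe sets were called higher in cov and 22.0% in wild type. Another 15.8% were called lower at the base in cov and 24.4% in wild type, or 31.3% and 46.4% in either direction. The order of the groups was the same for each gene, wild type base highest, then cov base, cov tip and wild type tip. Base and tip were far apart, whereas the cov and wild type tips of each gene, and the bases for GUT2, did not pass the test of their difference. The summed anther marker signal given above changed the other way along the stem, and its part in the base minus tip results was not tested.

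**Figure D2:**
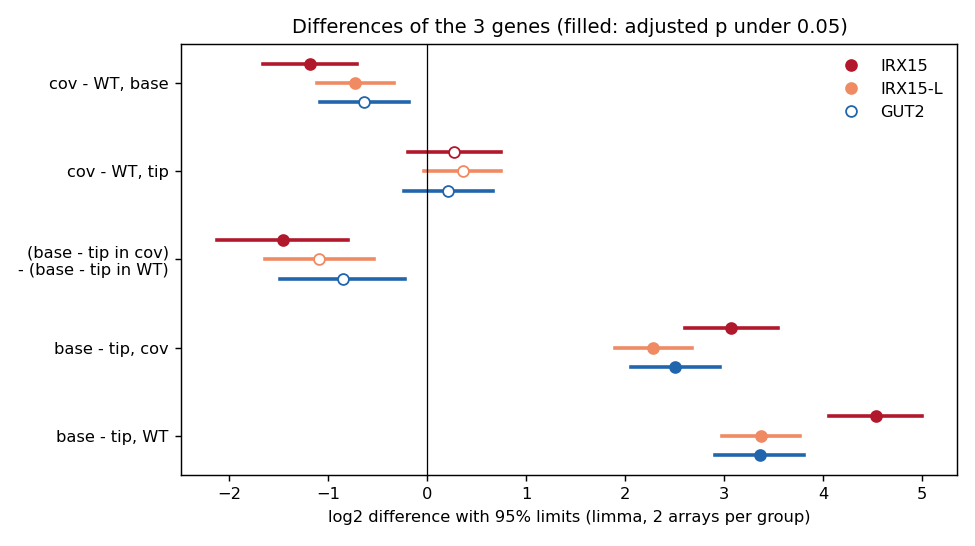
Log2 differences of IRX15, IRX15-L and GUT2 in the 5 comparisons, with 95% limits from the limma fit (2 arrays per group). Filled points passed an adjusted p of 0.05. The genotype difference is below 0 at the base and above 0 at the tip, and the base minus tip differences are smaller in cov than in wild type.

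The difference between the genotypes was itself compared between base and tip. The base minus tip log2 difference of IRX15 was 3.07 in cov and 4.53 in wild type, a change of -1.46 ± 0.30 (adjusted p = 0.0364). For IRX15-L it was 2.29 in cov and 3.37 in wild type, a change of -1.09 ± 0.25 that did not pass (adjusted p = 0.0539). For GUT2 it was 2.51 in cov and 3.36 in wild type, a change of -0.85 ± 0.29 (adjusted p = 0.183). So 1 of 3 genes had a smaller rise along the stem in cov by this test, where 1.04% of all probe sets were called in that direction, 1.11% in the other and 2.15% in either. The call of IRX15 was lost in 7 of the 8 fits that left out 1 array, all but that without cov base array 2. Among fits lacking 1 base array, its adjusted p was 0.0667 (cov array 1 omitted), 0.138 (wild type array 1) and 0.0574 (wild type array 2). Among fits lacking 1 tip array it ranged up to 0.134 (cov array 1 omitted), with 0.0842 for cov array 2, 0.0963 for wild type array 1 and 0.0879 for wild type array 2. The call was also lost under quantile normalization (adjusted p = 0.0504).

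Read as a share on the log2 scale, cov kept 67.8% of the wild type base minus tip difference for IRX15, 67.8% for IRX15-L and 74.7% for GUT2. A reduced difference was common among genes that are high at the base. Of the 3510 probe sets called higher at the base in wild type, the median share kept in cov was 63.0% (quartiles 44.2% and 81.0%), and 87.8% kept less than all of it. Of the 170 with a log2 difference of 3 or more in wild type, the median was 59.3%. These sets were chosen by a high wild type difference, which lowers the share. In the 195 probe sets with a log2 difference of 2 or more in cov, the median was 77.1% (quartiles 67.6% and 103%). That set was chosen by a high cov difference, which raises the share. The shares of the 3 xylan genes lay among these values, as the plot of base minus tip differences shows, and are not particular to them.

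**Figure D3:**
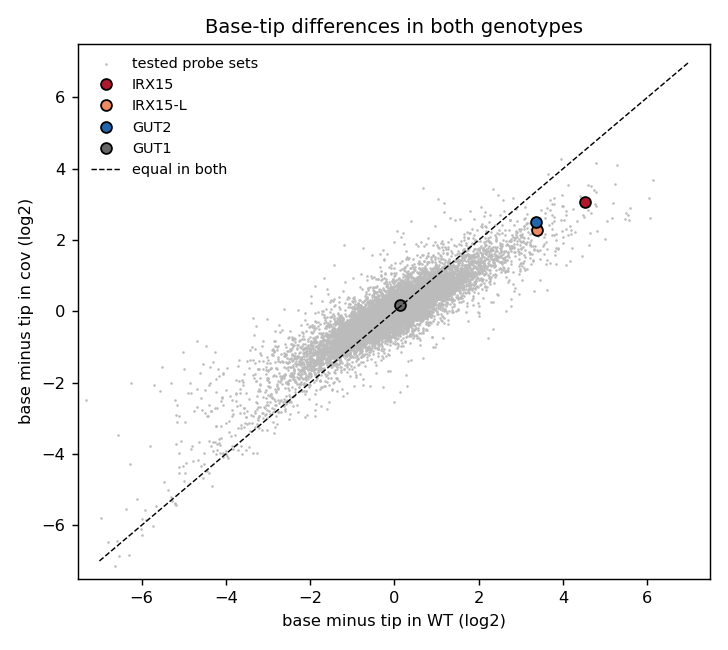
Base minus tip log2 difference in wild type (x) and in cov (y) of the 15923 tested probe sets, with the line of equal differences dashed. IRX15, IRX15-L and GUT2 lie under the line, within the band of other probe sets that are high at the base, and GUT1 lies near 0 in both genotypes.

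GUT1, the close relative of GUT2, was expressed without this pattern. Its signals were 181.2 and 201.5 in cov bases, 198.5 and 208.6 in wild type bases, 185.7 and 151.4 in cov tips, and 217.0 and 159.4 in wild type tips. In each compared pair of groups the signals overlapped, and no comparison passed the test. The base minus tip difference of GUT1 was 0.12 in wild type (95% limits -0.28 to 0.52), whereas that of GUT2 was 3.36 (2.91 to 3.80), so the limits of the relatives did not meet. At the base GUT1 had a log2 difference of -0.09 ± 0.18 between cov and wild type (adjusted p = 0.862).

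Of 34 entries in a list of genes for xylan synthesis, decoration and substrate supply, 6 were matched to a probe set and all 6 passed the dim filter. At the base 2 fell in cov, IRX15 and IRX15-L, 0 rose and 4 were not called, where 2.11% of all tested probe sets were called lower. The median log2 difference was -0.46, beside 0.02 over all tested probe sets, and it rests on the 3 genes described here, since the other entries lay between -0.30 and 0.25. At the tip 0 of 6 were called. From tip to base 3 of 6 rose in each genotype, where 15.4% of all tested probe sets did in cov and 22.0% in wild type, and these were the 3 genes described here. The other entries were GUT1 and the loci AT1G06890 and AT2G30460, which the list holds under substrate supply. AT1G06890 had mean signals of 184 in cov bases and 229 in wild type bases (log2 difference -0.30 ± 0.16, adjusted p = 0.359). AT2G30460 had 148 in cov bases and 123 in wild type bases (0.25 ± 0.21, adjusted p = 0.586), and its base minus tip difference in wild type passed only without wild type tip array 1 (-0.69, adjusted p = 0.0362).

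The DUF579 list, which holds the relatives of IRX15, had 10 entries, with 6 on the annotated array and 4 tested. Apart from IRX15 and IRX15-L, AT1G27930 and AT2G15440 were tested, and neither was called in any of the 5 comparisons in the fit used throughout. AT1G27930 had mean signals of 230 in cov bases and 237 in wild type bases, and 295 in cov tips and 285 in wild type tips. AT2G15440 had 47.7 in cov bases and 41.6 in wild type bases, and its base minus tip difference in wild type was -0.55 ± 0.21 (adjusted p = 0.0507). That difference passed without wild type base array 2 (adjusted p = 0.0165), without the variance trend (0.0415) and with a pseudocount at the table median of 47.4 (-0.35, 0.0478). AT1G27930 passed in cov base minus tip under quantile normalization (-0.41, adjusted p = 0.0498). The remaining AT1G71690 and AT1G67330 were dim, at 5.8 to 37.6 and 1.1 to 4.5 over the arrays, and were not tested.

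Lignin is laid down in the same walls as xylan, and its list had 23 entries, 5 matched to a probe set and 4 tested. At the base 1 fell in cov, 1 rose and 2 were not called, where 2.11% of all tested probe sets were called lower and 3.42% higher. The median log2 difference of the list was 0.04, beside 0.02 over all tested probe sets. HCT, an acyltransferase of monolignol synthesis, had 1282.4 and 1473.3 in cov bases against 1901.8 and 2294.9 in wild type bases (log2 difference -0.60 ± 0.15, adjusted p = 0.0470). The call of HCT was lost in each of the 8 fits that left out 1 array (adjusted p = 0.0564 to 0.199) and under quantile normalization (0.0999). The same call was lost with no filter (adjusted p = 0.0840), a pseudocount of 1 (0.0522), no variance trend (0.102) or only the base arrays fitted (0.150). HCT was higher at the base than at the tip by 2.19 ± 0.15 in wild type (adjusted p = 1.27e-06). That difference was smaller than in IRX15, IRX15-L and GUT2. PRX52, a peroxidase of lignification, went the other way, with 88.5 and 99.9 in cov bases against 39.5 and 36.2 in wild type bases (1.09 ± 0.26, adjusted p = 0.0325). Its call was lost without either cov base array (adjusted p = 0.086 and 0.137), either wild type base array (0.116 and 0.128) or either cov tip array (0.0527 and 0.0540), and under quantile normalization (0.0581). The call of PRX52 was lost as well with no filter (adjusted p = 0.0843) and with a pseudocount of 1 (0.0991). AT5G51890 and AT2G22420 were not called between genotypes. Both were lower at the base than at the tip in wild type (log2 differences -2.17 and -1.31, adjusted p = 1.17e-05 and 0.000287). In that comparison 24.4% of all tested probe sets were called lower and 22.0% higher. PRX72 (AT5G66390) was too dim to be tested, at 1.0 to 13.6.

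Of 7 genes for secondary wall cellulose 0 had a named probe set, and of 32 regulators of secondary walls 1 had one, AT1G66810 (C3H14, a zinc finger protein). It had mean signals of 84.1 in cov bases and 89.8 in wild type bases (log2 difference -0.07 ± 0.21, adjusted p = 0.908). Its rise from tip to base passed in wild type (0.57 ± 0.21, adjusted p = 0.0410), though not without wild type base array 2 (0.254), either wild type tip array (0.0997 and 0.122) or either cov tip array (0.0606 and 0.0598). That rise was also not called with no filter (adjusted p = 0.0715) or with only the wild type arrays in the fit (0.0660). The NAC and MYB factors that switch on secondary wall genes had no named probe set and were not analysed here.

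**Figure D4:**
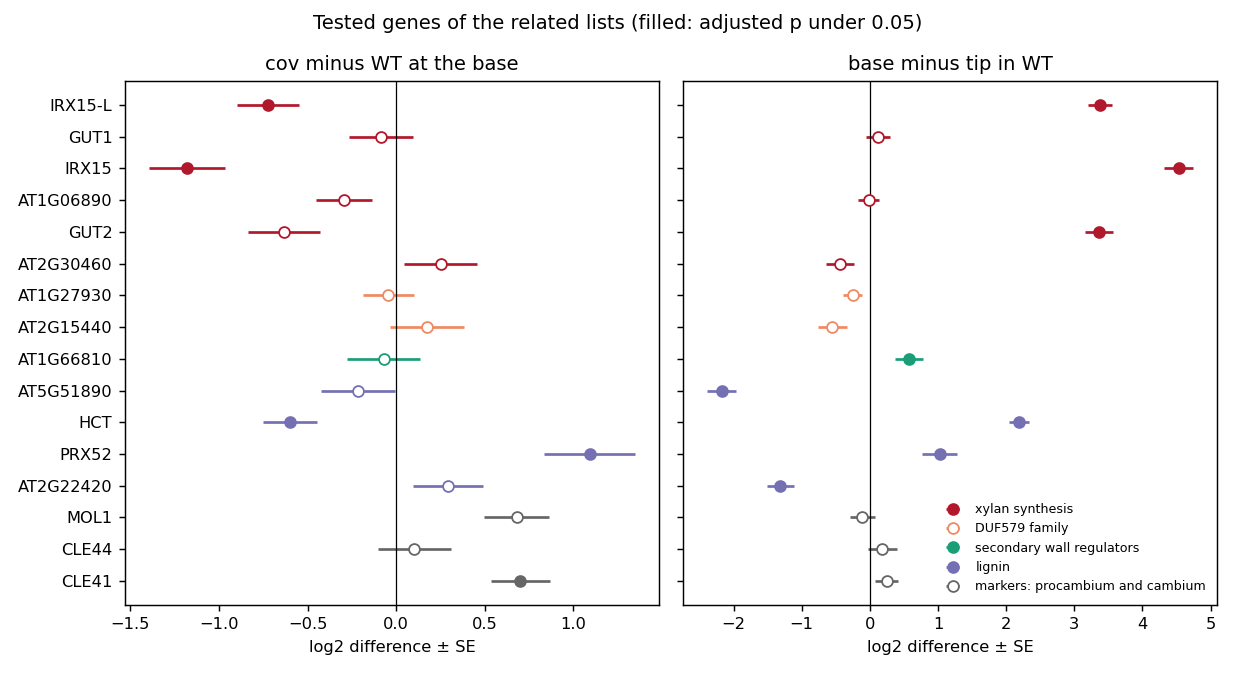
Log2 difference ± SE of the tested genes of the xylan, DUF579, regulator, lignin and procambium lists, for cov minus wild type at the base (left) and base minus tip in wild type (right). Filled points passed an adjusted p of 0.05. IRX15, IRX15-L and GUT2 have the largest base minus tip differences of these genes, and GUT1 lies near 0 in both panels.

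From the list of procambium and cambium genes, 1 of 3 measured was called higher in cov at the base, where 3.42% of all tested probe sets were. Of 8 procambium and cambium markers 3 had a probe set, CLE41, CLE44 and MOL1. CLE41 and CLE44 are transcribed in and near the phloem and encode a peptide that acts on the procambium. The summed signal of the 3 markers was 426.2 to 506.0 in cov bases and 282.2 to 308.3 in wild type bases. At the tip it was 322.4 to 342.2 in cov and 244.7 to 281.8 in wild type. CLE41 was raised at the base, with 278.3 and 331.6 in cov against 174.8 and 190.2 in wild type (0.70 ± 0.17, adjusted p = 0.0329). MOL1 had a difference of similar size but was not called (0.68 ± 0.18, adjusted p = 0.0598). CLE44 was not called either (0.10 ± 0.21, adjusted p = 0.86). CLE41 no longer passed in fits that omitted cov base array 2 (adjusted p = 0.164), 1 of the wild type bases (0.154 for array 1, 0.0831 for array 2) or 1 of the cov tips (0.0558 and 0.0563), nor under median centring (0.0701). The call of CLE41 was also lost without the variance trend (adjusted p = 0.0679) and with only the base arrays in the fit (0.0717). CLE41 was the largest part of the summed signal, with a mean of 305 in cov bases beside 104 for MOL1 and 57.15 for CLE44. The part of procambium, cambium or phloem cells in the values of the xylan genes was not tested. Of 3 entries in the myrosin cell list only FMA (FAMA) had a probe set, so those cells were not measured by the list as a whole. FMA had 42.8 to 63.0 in cov bases and 40.0 to 45.4 in wild type bases and was not called.

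Likeness of pattern was measured over the 8 arrays among the 8778 tested probe sets with 1 gene. Since all arrays share the split into base and tip, many genes correlate closely, and 445 to 495 of the 8777 other probe sets had a Pearson r of 0.95 or more with each of the 3 genes. IRX15-L and GUT2 were each among the closest to the other. GUT2 was the second closest to IRX15-L by both r (0.997) and the root mean square difference of centred log2 values (0.116), and IRX15-L was the closest to GUT2 by the latter measure. IRX15 had IRX15-L as its number 3 by r (0.997) but as number 14 by that difference (0.522), and its rise along the stem was the larger.

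AT4G27435 was the gene most like IRX15-L by either measure (r = 0.999, root mean square difference 0.0939), and ranked 1 by r for GUT2 and 4 for IRX15. Its signals were 944.0 and 1138.0 in cov bases, 1751.6 and 1528.2 in wild type bases, 205.4 and 218.2 in cov tips, and 169.7 and 174.6 in wild type tips. GAMMA-VPE, a vacuolar protease, lay within a root mean square difference of 0.130 of IRX15-L and 0.131 of GUT2. It had 1973.7 and 2140.9 in cov bases, 3386.8 and 2777.8 in wild type bases, 314.0 and 381.8 in cov tips, and 260.7 and 311.6 in wild type tips. Both genes had the group order of IRX15, IRX15-L and GUT2, as the plot of centred values shows. They were picked for their likeness over these same arrays, so the shared order largely follows from that choice and is not a separate finding.

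By r, the 5 nearest to IRX15 also held AT1G13830 (0.998), TET3 (0.998), a tetraspanin, and AT1G22410 (0.997). The 5 of IRX15-L also held GRXC1, a glutaredoxin, and AILP1 (0.997 each), and those of GUT2 held AT1G55265 (0.997), GAMMA-VPE and AILP1 (0.996 each). By root mean square difference, AT1G72220 (0.188) and AT3G54040 (0.194) followed for IRX15-L, and AT3G14280 (0.224) and AT3G54040 (0.227) for GUT2. The 5 nearest to IRX15 by that measure were AT2G31930 (0.322), AT4G28380 (0.364), AT3G14280 (0.375), AT3G23090 (0.380) and AT1G18980 (0.421). Those 5 had tip signals of 0.4 to 14.9, so their rise is set largely by the pseudocount.

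**Figure D5:**
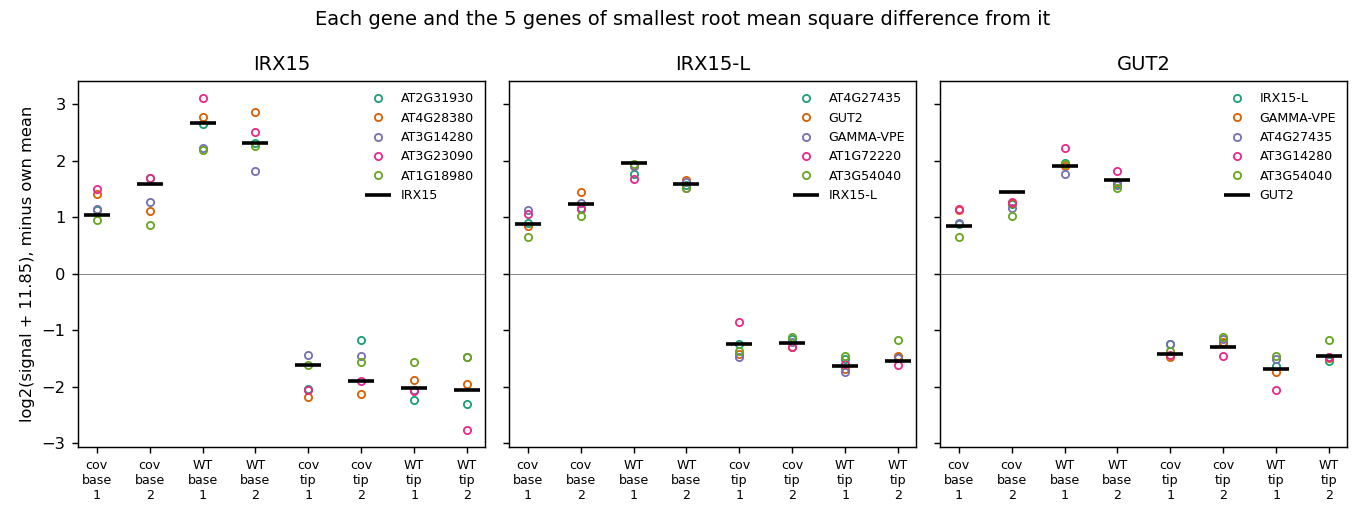
Log2(signal + 11.85) of each xylan gene (black bars) and of the 5 genes of smallest root mean square difference from it (circles), each minus its own mean over the 8 arrays. The genes nearest to IRX15-L and GUT2 lie close to their bars, while those nearest to IRX15 scatter more at the tip.

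Genes that neighbour the 3 xylan genes in the RefSeq annotation of TAIR10.1 were also read. Of 18 neighbours, 3 on each side, 11 were matched to a probe set and 7 passed the dim filter. At the base 0 of 7 were called between cov and wild type, where 5.53% of all tested probe sets were, with log2 differences of -0.29 to 0.50. From tip to base in wild type 3 of 7 fell, by up to 1.08 on the log2 scale, and 0 rose, where 24.4% of all tested probe sets fell and 22.0% rose. IRX14-L, another gene for the xylan backbone, lies 2 genes from IRX15-L but had no named probe set.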

How the data were processed

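RNA of cov and wild type stem bases and tips was hybridised to 8 ATH1 arrays. The deposited table holds MAS5 signal, a linear intensity, per the submitters' processing notes, with no version named there. Of 22810 probe sets 64 controls were left out. GEO's annotation named 1 gene for 13513, several for 503 and none for 8730, and 13436 symbols were updated through RefSeq (TAIR10.1).

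Values were taken as log2(signal + 11.85), the pseudocount being 0.25 times the median of the table, and 6823 probe sets with a mean below 21.36, the 30th percentile, were left out. A model of 4 group means was fitted with limma 3.58.1 in R 4.3.3 (eBayes with trend, 4 residual degrees of freedom). P-values are two-sided and Benjamini-Hochberg adjusted over 15923 probe sets within each comparison, at 0.05. Precision is limited by the 2 arrays in each group. Nothing in the labels says that replicates came from separate plants, so p-values measure only the spread between these samples, which may be technical.

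On simulated data for the base comparison over the tested probe sets, 2% of 1.5-fold, 20% of 2-fold, 82% of 4-fold and 94% of 8-fold changes were recovered. Only 50 probe sets were changed at each size, and 103 were called, against 881 in the data. The simulated spreads were drawn at random around a smoothed trend, with a mean variance above it, so simulated arrays may be noisier than the real ones. The share recovered in the data may therefore differ.

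The 3 genes and the lists (163 loci, 23 with a probe set) were chosen with earlier results of these data known. Genes named are the 3, the 5 nearest to each by 2 measures of likeness, all xylan entries with a probe set, and in other lists up to 4 of smallest p at the base plus any called. The neighbouring genes and dim list entries stand outside that rule and were added after values were seen. Alternatives were other pseudocounts, filters, scalings and variance models, fits on the compared groups alone, a replicate block and the omission of each array.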

Additional observations from a re-analysis of the deposited data

Results flagged for a closer look

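IRX15 was the 1 gene of the 3 that passed the test of whether its genotype difference itself differs between base and tip. Of all tested probe sets 1.04% were called in that direction and 2.15% in either. The log2 difference was -1.18 at the base and 0.28 at the tip, and the difference between them was -1.46 ± 0.30 (limma, adjusted p = 0.0364). It ranked 157th from the lowest of 15923. The call of IRX15 was lost with no filter (adjusted p = 0.0865), under quantile normalization (0.0504) and without the variance trend (0.0686). As given above, it was also lost in most fits that left out 1 array. The same arrays give -1.09 for IRX15-L (adjusted p = 0.0539) and -0.85 for GUT2 (0.183), and whether the 3 genes differ among themselves in this was not tested.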

How the results depend on the processing

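No alternative turned the direction of any of the 3 genes in any comparison, including median centring, under which the median of all tested probe sets moved to -0.06 at the base. The base minus tip calls of the 3 genes held in every alternative. With no filter the call of IRX15-L at the base was lost (log2 difference -0.72, adjusted p = 0.0626), as it was without the variance trend (0.0785) and with only the base arrays in the fit (0.110). With the replicate block it was lost too (-0.72, adjusted p = 0.0512). Same-numbered arrays deviated together weakly at most (r = -0.04 to 0.16 over pairs of groups, highest for cov tips with wild type tips). The labels do not tie the numbers to shared plants. The block changed no other call of the 3 genes. The base against tip difference of IRX15 was lost with no filter (-1.46, adjusted p = 0.0865), quantile normalization (-1.40, 0.0504) or no trend (-1.46, 0.0686). That of IRX15-L passed with the filter at the 50th percentile (-1.09, 0.0439).

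Leaving out 1 array gave, at the base, -1.45 to -0.91 for IRX15, -0.91 to -0.53 for IRX15-L and -0.93 to -0.33 for GUT2. For the base against tip difference it gave -1.73 to -1.19, -1.28 to -0.89 and -1.15 to -0.55 in the same order of genes. Of all probe sets, 881 were called at the base, 440 to 873 with 1 array left out (440 without wild type base array 1) and 490 with only the base arrays. At the tip 290 were called, and 116 to 350 with 1 array left out (116 and 132 without a cov tip array, 181 and 176 without a wild type tip array). The difference between base and tip was called for 342, for 111 to 465 with 1 array left out (204 or fewer without cov base array 2 or any tip array, 142 and 212 without a wild type base array), 139 with no filter and 227 without the trend. Base minus tip in cov was called for 4978, and for 2870 to 5062 with 1 array left out (2870 and 3263 without a cov tip array). In wild type it was called for 7391, and for 6003 to 7434.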
